A study of Mus musculus with 6 samples.

Results

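The genes described here are the 3 repressor proteins that bind the cap-binding factor eIF4E (Eif4ebp1, Eif4ebp2 and Eif4ebp3, the 4E-BPs). With them are 3 members of the eIF4E family (Eif4e, Eif4e2 and Eif4e3). Together they are 6 of the 52550 gene identifiers in the count tables, taken by symbol. Of the 6, 5 had reads and passed the filter on low counts, which kept 14913 genes. The measurement was polyA RNA-seq of newborn mouse cortex taken at postnatal day 2, and each library held RNA of 1 hemisphere. The knockout group was Slc7a5fl/fl; Emx1Cre+, in which the Emx1 driver expresses Cre in the excitatory lineage and glia of the dorsal forebrain (3 libraries, lettered A, B and C). The control group was Slc7a5fl/fl; Emx1Cre-, which by the genotype label has the same floxed alleles and no Cre (3 libraries, lettered A, B and C). The series' design text and the sample titles call these controls wild type, a conflict that the labels do not settle. All mice were C57BL6/J. Interneurons, microglia and vessels of the cortex arise outside the Emx1 lineage and keep Slc7a5 in this model. By either description only knockouts carried Cre, so loss of Slc7a5 and an effect of Cre itself cannot be told apart.

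Translation of most cellular mRNAs begins when eIF4E binds the cap at the 5′ end and recruits the scaffold eIF4G and the helicase eIF4A, which together form eIF4F. The 4E-BPs occupy the same surface of eIF4E as eIF4G and so keep eIF4F from forming. The kinase mTORC1, which is active when amino acids are plentiful, phosphorylates the 4E-BPs and releases them from eIF4E. Eif4ebp1 is also a known transcriptional target of ATF4, the factor of the amino acid response, and 4E-BP2 is the main 4E-BP protein of the mammalian brain. Slc7a5 encodes LAT1, a carrier of large neutral amino acids, and the study asked about such amino acids in newborn neurons. RNA levels give neither the amount nor the phosphorylation of any of these proteins.

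The repressors Eif4ebp1 and Eif4ebp2 share the stretch that contacts eIF4E, and their bases there are printed to show how alike and how distinguishable the transcripts are. Each run is 60 coding bases around the eIF4E-binding motif, read 5′ to 3′ from GENCODE M21 transcripts on GRCm38, and the capitals mark the 14 bases at which they differ. The motif itself is coding bases 157 to 177 of Eif4ebp1 and 160 to 180 of Eif4ebp2. The Eif4ebp1 run lies on the plus strand at chr8:27260544-27260550 and chr8:27273323-27273375, and the Eif4ebp2 run on the minus strand at chr10:61452402-61452408 and chr10:61435051-61435103.
Eif4ebp1: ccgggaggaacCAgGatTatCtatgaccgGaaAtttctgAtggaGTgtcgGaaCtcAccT
Eif4ebp2: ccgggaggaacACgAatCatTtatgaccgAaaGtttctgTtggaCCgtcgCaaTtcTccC
The other 46 bases of the window were identical. Over their whole coding sequences (351 and 360 bases) Eif4ebp1 and Eif4ebp2 were 69.1% identical, and the longest identical run was 14 bases. No stretch of 50 bases in Eif4ebp2 transcripts occurred in another gene, and 2.87% of those in Eif4ebp1 did. The cap binders were less alike in coding sequence: Eif4e and Eif4e2 were 57.1% identical, Eif4e and Eif4e3 52.6%, and Eif4e2 and Eif4e3 60.7%.

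Total gene counts were 8249436 to 10372582 per library. Slc7a5, the targeted gene, had 15.6, 9.35 and 11.4 CPM (reads per gene scaled to the library's total) in knockouts A, B and C, against 20.2, 40.6 and 26.0 CPM in controls A, B and C. All 3 knockouts were below all 3 controls, by a log2 change of -1.25 ± 0.28 (SE), which missed the threshold of an adjusted p under 0.05 in edgeR's quasi-likelihood test (adjusted p = 0.400) and passed it in DESeq2 (adjusted p = 3.42e-04). The summed level of 8 interneuron markers was 1315 to 1581 CPM in knockouts and 1183 to 1265 CPM in controls, without overlap. That of 5 oligodendrocyte lineage markers was 190 to 204 CPM in knockouts and 211 to 254 CPM in controls, again without overlap. Sums for cortical excitatory neuron, radial glia, astrocyte, microglia, endothelial and red cell markers overlapped between the genotypes, and no marker was at 0 in all libraries. Log2 changes were positive for 8 of 8 interneuron markers (median 0.24), 7 of 7 radial glia and intermediate progenitor markers (median 0.30), 7 of 7 endothelial markers (median 0.22) and 7 of 8 microglia markers (median 0.16). They were negative for 5 of 5 oligodendrocyte lineage markers (median -0.13), 5 of 5 red cell markers (median -0.093), 4 of 6 astrocyte markers (median -0.049) and 5 of 8 excitatory neuron markers (median -0.11). Of the 54 markers edgeR called none, where it called 0.0335% of all tested genes. An unadjusted p under 0.05 was found for 16 of them, where 7% of all tested genes had one. DESeq2 called 1 excitatory neuron marker, where it called 0.181% of all genes. With the replicate letter as a block, edgeR called 3 excitatory neuron markers and 1 interneuron marker, where it called 0.845% of all genes. The excitatory neuron list holds Emx1, the gene of the Cre driver that only knockouts carried, at 7.91 to 25.4 CPM over the 6 libraries. Excitatory neuron markers, which define the labelled tissue, summed to 3079 to 3405 CPM over the 6 libraries. Reads outside annotated exons on the strand counted were 27.4 to 27.9% of mapped reads in knockouts and 22.5 to 26.5% in controls. Reads antisense to exons are among them.

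Among the repressors, Eif4ebp1 was 4.18 times as abundant in the knockout cortex. Eif4ebp1 (chr8:27260329-27276674, plus strand) had 147, 147 and 98 reads in knockouts A, B and C, against 20, 36 and 29 reads in controls A, B and C. Scaled for depth, these were 15.1, 13.6 and 10.2 CPM in knockouts and 2.01, 4.46 and 2.95 CPM in controls. Every knockout lay above every control, and the exact Poisson intervals of the read counts, which cover counting error only, were also apart. The lowest knockout count of 98 had a 95% interval of 79.6 to 119, and the highest control count of 36 one of 25.2 to 49.8. The mean was 12.9 ± 2.53 CPM in knockouts and 3.14 ± 1.24 CPM in controls (SD, n = 3 each), a log2 change of 2.06 ± 0.26 (SE). In bulk tissue, a change in the cells that carry the transcript and a change in RNA per cell cannot be told apart. The part played in this difference by the interneuron, oligodendrocyte lineage, radial glia and other marker lists was not tested. Nor was that of the reads outside exons on the strand counted.

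The 6 genes were chosen by their family and by the values of this same contrast, knockout against control, which were already known. In it, Eif4ebp1 was called higher (adjusted p = 0.00445, edgeR), and its values stand here as a description. The call was made for 1 of the 5 genes that passed the filter, where 0.0201% of all tested genes were called higher. Among the 14913 tested genes, Eif4ebp1 ranked 2 by increase and 3 by the size of the log2 change in either direction. Leaving out knockout B ended the call, with a log2 change of 2.03. Within same-letter pairs, knockout minus control, the log2 difference was 2.91 for A, 1.61 for B and 1.79 for C. The same pairs differed in Slc7a5 by -0.37, -2.12 and -1.19 on the log2 scale, so pair A had the greatest difference in Eif4ebp1 and the smallest in Slc7a5.

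**Figure D1:**
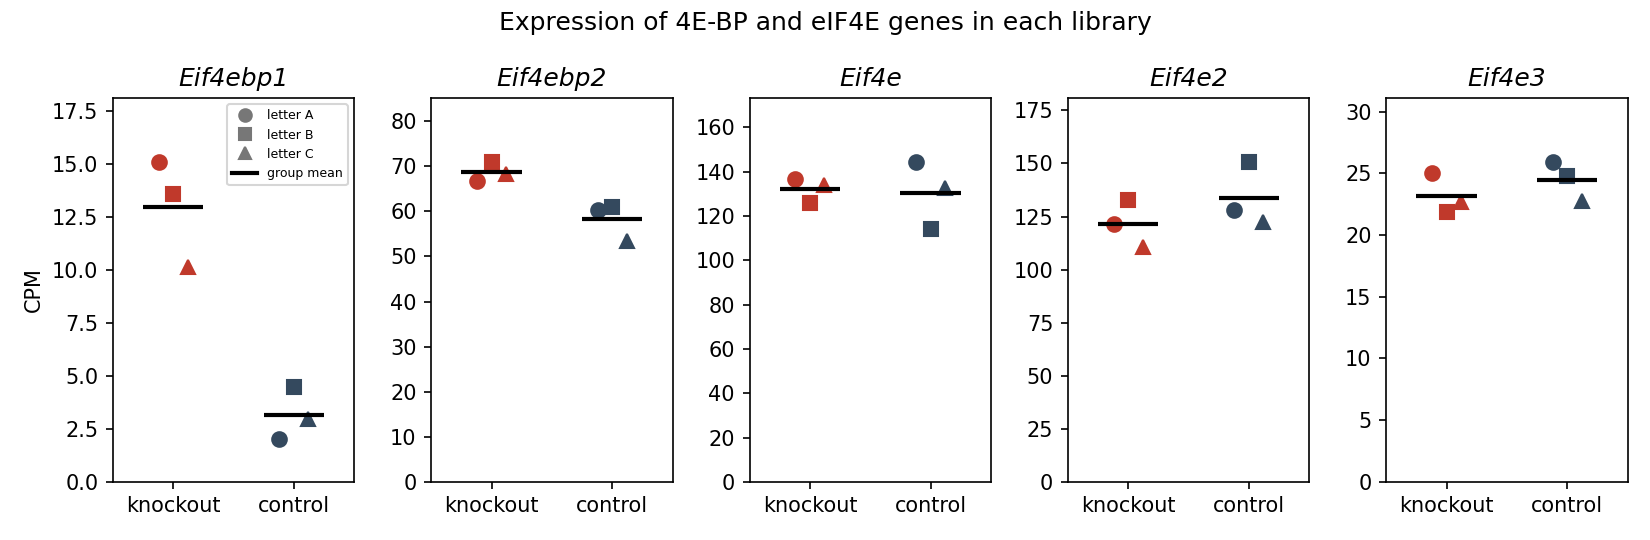
CPM (vertical axes, each from 0) of the 5 genes with reads in the 3 knockout and 3 control libraries, with marker shapes for the library letter and a line for each group mean. The groups lie apart for Eif4ebp1 (10.2 to 15.1 CPM in knockouts, 2.01 to 4.46 CPM in controls) and, by less, for Eif4ebp2, and overlap for Eif4e, Eif4e2 and Eif4e3.

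Eif4ebp2 (chr10:61428491-61452661, minus strand) had 651, 767 and 658 reads in knockouts A, B and C, against 601, 493 and 525 reads in controls A, B and C. This was 66.9, 71.0 and 68.2 CPM in knockouts and 60.4, 61.0 and 53.4 CPM in controls. The groups did not overlap, but the step between them was small: the means were 68.7 ± 2.09 CPM in knockouts and 58.3 ± 4.25 CPM in controls (SD, n = 3 each). The log2 change was 0.24 ± 0.11 (SE), and the interval of 2 SE on either side ran from 0.027 to 0.45. It was not called (unadjusted p = 0.0381, adjusted p = 0.705, edgeR). Knockout libraries lay above all controls without overlap for 2 of the 5 genes, Eif4ebp1 and Eif4ebp2, and for 5.88% of all tested genes. Same-letter pairs differed in Eif4ebp2 by 0.15, 0.22 and 0.35 for A, B and C.

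Eif4ebp3 had no read in any of the 6 libraries and was not tested. A count of 0 allows up to 3 counts by the one-sided 95% limit (3.69 by the two-sided interval used for Eif4ebp1). The limit of 3 counts is 0.278 to 0.371 CPM depending on the library. Of its 744 exon bases in GENCODE M21, 501 (67.3%) are also exons of a read-through transcript on the same strand, AC115631.1, which joins the upstream gene Ankhd1 to it. Reads in exons that belong to more than 1 gene are counted as ambiguous, so with such an annotation only 243 bases could have given a count. Over these bases the limit is 1.14 to 1.53 CPM per kb. Ankhd1 itself had 771, 827 and 724 reads in knockouts A, B and C, against 846, 551 and 584 reads in controls A, B and C. AC115631.1 has no line in the count tables, whose annotation release is not given in the sources used here, so the counts do not show whether Eif4ebp3 was expressed.

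The canonical cap binder Eif4e (chr3:138526179-138559696, plus strand) had 1330, 1362 and 1293 reads in knockouts A, B and C, against 1438, 922 and 1304 reads in controls A, B and C. Its levels were 137, 126 and 134 CPM in knockouts and 144, 114 and 132 CPM in controls. All 3 knockouts fell inside the range of the controls, of which A was the highest and B the lowest of the 6 libraries. The means were 132 ± 5.52 CPM in knockouts and 130 ± 15.3 CPM in controls (SD, n = 3 each). The log2 change was 0.02 ± 0.11 (SE), and the interval of 2 SE on either side ran from -0.20 to 0.24. Its sign turned without knockout A or without control B.

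Eif4e2, also called 4EHP, binds the cap but recruits eIF4G poorly and acts with GIGYF proteins to repress translation. Eif4e2 (chr1:87213914-87240488, plus strand) had 1182, 1436 and 1068 reads in knockouts A, B and C, against 1275, 1217 and 1205 reads in controls A, B and C. This was 121, 133 and 111 CPM in knockouts and 128, 151 and 122 CPM in controls. The groups overlapped, although in each letter the knockout was the lower library, with log2 differences of -0.077, -0.18 and -0.15 for A, B and C. The log2 change was -0.14 ± 0.11 (SE), with an interval of -0.36 to 0.088. Eif4e3, a divergent cap binder that binds eIF4G but not the 4E-BPs, had 244, 236 and 219 reads in knockouts A, B and C, against 258, 200 and 224 reads in controls A, B and C. This was 25.1, 21.8 and 22.7 CPM in knockouts and 25.9, 24.8 and 22.8 CPM in controls. These groups also overlapped, with a log2 change of -0.08 ± 0.13 (SE) and an interval of -0.34 to 0.18. Eif4e3 (chr6:99625135-99666771, minus strand) shares 14.8% of its exon bases with Gm20696 on the same strand, so reads there are counted for neither gene. Neither Eif4e2 nor Eif4e3 nor Eif4e was called, and the intervals leave room for small changes in either direction.

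Levels can be set side by side only per length, as CPM per kb of all annotated exon bases of a gene. In knockouts the means were 22.0 for Eif4e, 16.2 for Eif4e2, 11.9 for Eif4ebp2, 9.22 for Eif4e3 and 5.90 for Eif4ebp1. In controls they were 21.7 for Eif4e, 17.8 for Eif4e2, 10.1 for Eif4ebp2, 9.73 for Eif4e3 and 1.43 for Eif4ebp1, also in CPM per kb. Control B departed from the other libraries in the balance of cap binders: Eif4e2 was 0.712, 0.845 and 0.662 times Eif4e in knockouts A, B and C, against 0.711, 1.06 and 0.741 times in controls A, B and C. With all exon bases as length, neighbours in this order did not overlap among the 3 knockout libraries. Among the controls, Eif4e overlapped with Eif4e2, and Eif4ebp2 with Eif4e3. The order depends on the length taken. Over the 2142 Eif4e3 bases that are not shared with Gm20696, Eif4e3 had 11.7, 10.2 and 10.6 CPM per kb in knockouts A, B and C, against 12.1, 11.6 and 10.6 CPM per kb in controls A, B and C. On that length Eif4e3 overlapped with Eif4ebp2 in the knockouts and lay above it in all 3 controls. The order of Eif4e and Eif4e2 also turned: with the longest transcript in place of all exons, Eif4e2 had 35.0 CPM per kb in knockouts and 38.5 in controls, and Eif4e 26.5 in knockouts and 26.1 in controls.

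Of the repressors with reads, Eif4ebp2 was the more abundant in every library of both genotypes, and Eif4ebp1 took a greater part of the 4E-BP level in the knockouts. Eif4ebp1 made up 37.3, 33.6 and 28.2% of the summed per-length level of Eif4ebp1 and Eif4ebp2 in knockouts A, B and C, against 8.06, 16.1 and 12.7% in controls A, B and C. The mean share was 33.0 ± 4.58% in knockouts and 12.3 ± 4.05% in controls (SD, n = 3 each), 20.7 percentage points apart. The summed 4E-BP level was 17.8 ± 1.17 CPM per kb in knockouts and 11.5 ± 1.01 in controls, a ratio of 1.54. The summed level of Eif4e, Eif4e2 and Eif4e3 was 47.5 ± 1.39 CPM per kb in knockouts and 49.3 ± 2.01 in controls, and these groups overlapped. Set against Eif4e, the summed 4E-BP level was 0.811, 0.880 and 0.736 in knockouts A, B and C, against 0.472, 0.662 and 0.479 in controls A, B and C. All of these ratios contain Eif4ebp1 or genes chosen with it, and they describe its change rather than add to it.

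**Figure D2:**
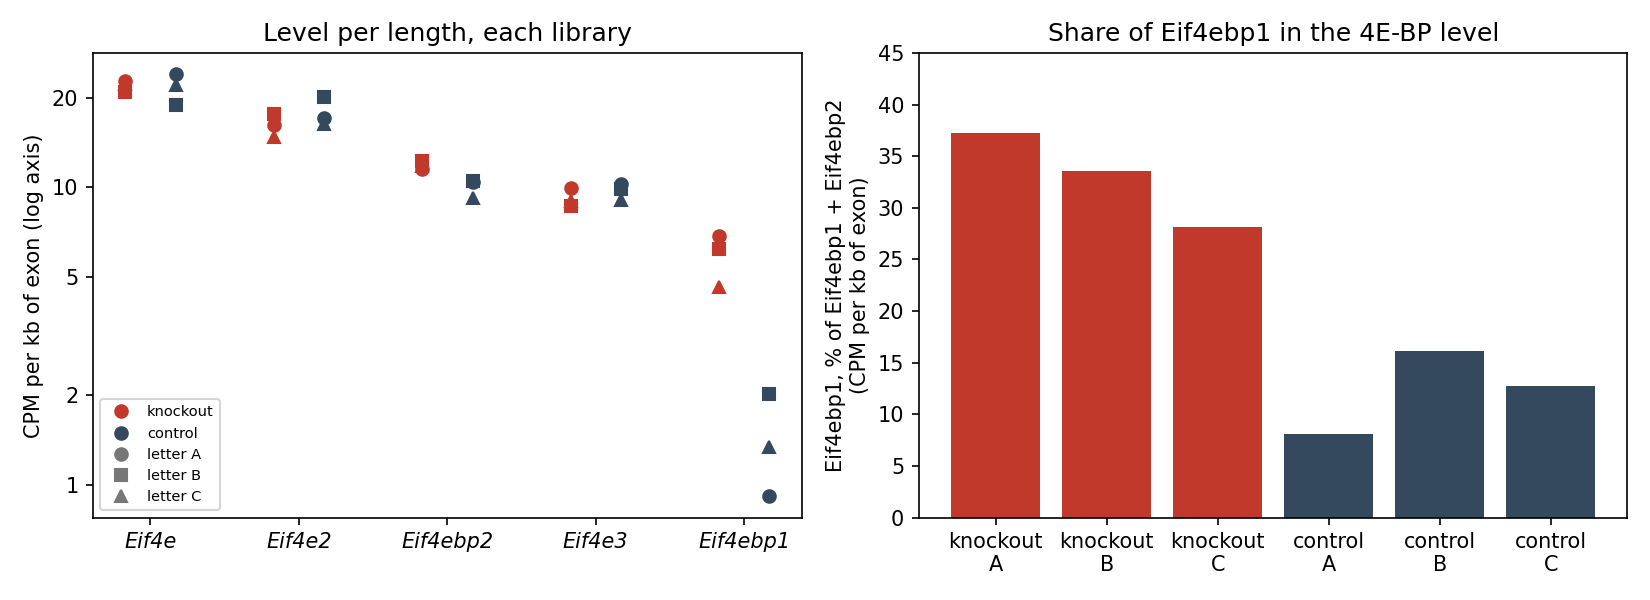
Left, CPM per kb of exon (log axis) of 5 genes in each library, with knockouts left of controls. Right, Eif4ebp1 as a percentage of the summed per-length level of Eif4ebp1 and Eif4ebp2, which was 28.2 to 37.3% in the 3 knockouts and 8.06 to 16.1% in the 3 controls.

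Transcripts of the proteins that work with eIF4E were described by 2 lists. Over all 14913 tested genes edgeR called 5, so the absence of a call in a short list is no result about its genes. Of 12 genes for the scaffold, helicase and poly(A) partners of eIF4F, 6 had positive and 6 negative log2 changes, with a median of -0.0025, beside a median of 0.0011 over all genes tested. None was called by edgeR or DESeq2, where edgeR called 0.0335% and DESeq2 0.181% of all tested genes in either direction. An unadjusted p under 0.05 was found for 1 of the 12, beside 7% of all tested genes. The 2 with the smallest p were the helicase Eif4a2, at 19.0 ± 2.94 CPM in knockouts and 24.9 ± 1.66 CPM in controls (SD, n = 3 each; log2 change -0.39 ± 0.14, SE), and the eIF4G-related Eif4g2 (-0.15 ± 0.10). Eif4a2 was the 1 gene of the 12 whose knockouts all lay below the controls, which held for 6.32% of all tested genes. A further list of 12 held other eIF4E-binding proteins, eIF4E kinases and the eIF4E family member Eif4e1b, which averaged 0.017 CPM and was not tested. Neither tool called any of the 11 tested, with 5 positive, 6 negative and a median of -0.0053. Of the 11, 2 had an unadjusted p under 0.05, beside 7% of all tested genes. Knockouts lay above all controls for 1 of the 11 (Mknk1) and below all controls for 2 (Cyfip2 among them). Over all tested genes these shares were 5.88% and 6.32%. Cyfip2, whose protein belongs to a family that binds eIF4E together with FMRP, had a log2 change of -0.27 ± 0.11 (SE). Mknk1, a kinase that phosphorylates eIF4E, had one of 0.38 ± 0.17.

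The upstream kinase was described by 12 genes of mTORC1 and its regulators, 3 with positive and 9 with negative log2 changes and a median of -0.050. Over all tested genes 50.2% of log2 changes were positive. Neither edgeR nor DESeq2 called any of the 12, where they called 0.0335% and 0.181% of all tested genes. None had an unadjusted p under 0.05, beside 7% of all tested genes. Klhl25, the adaptor that directs degradation of unphosphorylated 4E-BP1 in human cells, had knockouts all below the controls. This held for 1 of the 12 genes, beside 6.32% of all tested genes. Klhl25 had a log2 change of -0.27 ± 0.15 (SE). Rheb, the GTPase that activates mTORC1, had one of -0.18 ± 0.14.

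All 20 genes of a list of ATF4 and its amino acid response targets, which does not hold Eif4ebp1, had positive log2 changes, with a median of 0.52 (with the replicate letter in the model, Cebpb was at -0.054). The list was drawn up with this pattern known and its direction is not independent evidence. edgeR called none of the 20 without the replicate letter in the model, although 14 had an unadjusted p under 0.05, and DESeq2 called 6, beside the 7% and 0.181% of all tested genes given above. With the letter as a block, 8 of the 20 were called higher, where 0.329% of all tested genes were called higher. Among these, Sesn2, an inhibitor of mTORC1 signalling that senses leucine, averaged 15.5 ± 5.31 CPM in knockouts and 5.31 ± 0.788 CPM in controls (SD, n = 3 each; log2 change 1.54 ± 0.25, SE). Chac1, a glutathione-degrading enzyme, had a log2 change of 1.75 ± 0.29. Atf5, a transcription factor related to ATF4, had one of 1.16 ± 0.18, and Mthfd2, a mitochondrial folate enzyme, one of 0.71 ± 0.13. Same-letter pairs A, B and C differed by 1.965, 1.894 and 0.621 in Sesn2 and by 1.765, 2.741 and 0.812 in Chac1. The differences were 1.46, 1.08 and 0.84 in Atf5 and 0.92, 0.70 and 0.55 in Mthfd2, so pair C had the smallest in each gene. The adjusted p values of these 4 genes in edgeR were 0.0506, 0.0506, 0.0875 and 0.0834 without the block, and 2.39e-04, 8.98e-04, 1.74e-08 and 8.24e-04 with it. The call of Eif4ebp1 was made in both models.

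**Figure D3:**
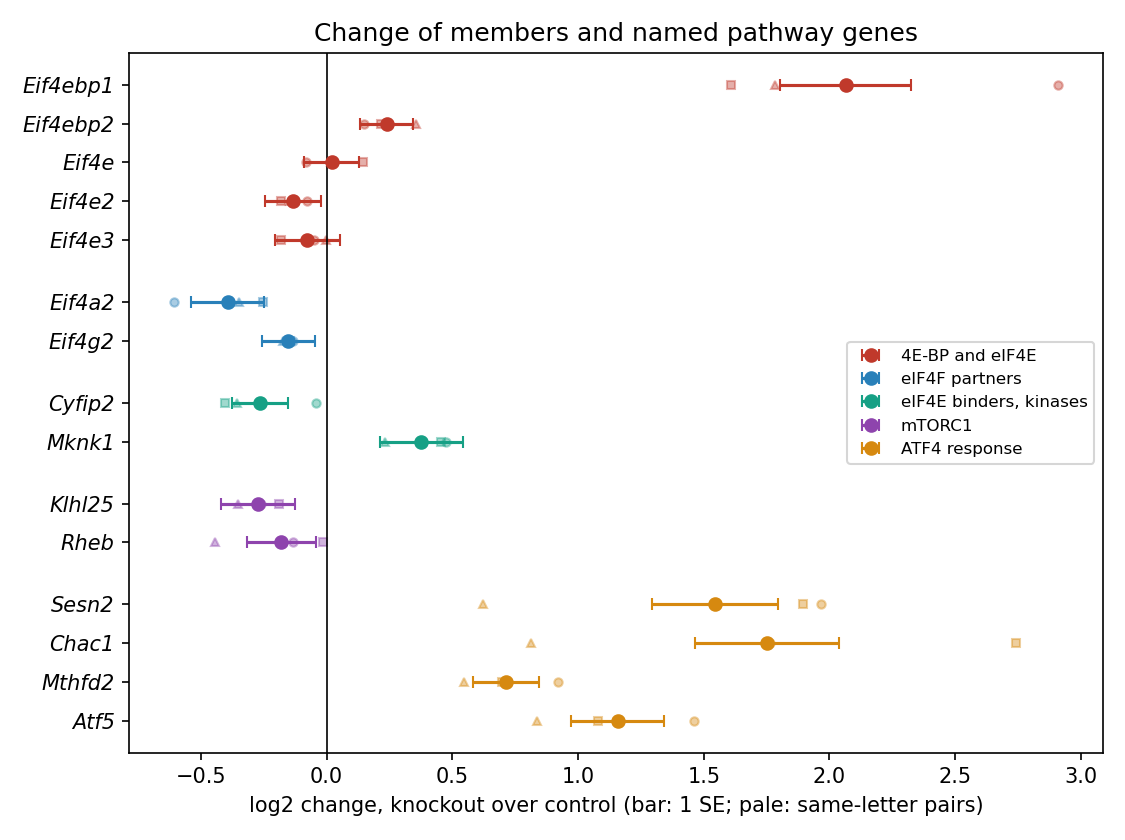
The log2 change, knockout over control (horizontal axis), of the 5 genes with reads and of the named pathway genes, with bars of 1 SE and pale points for the same-letter pairs A, B and C. Eif4ebp1 stands at 2.06, Eif4ebp2 and the cap binders between -0.14 and 0.24, and the 4 named ATF4 response genes between 0.71 and 1.75.

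Likeness of pattern was measured as the root mean square difference of log2 CPM, centred on each gene's mean, over the 6 libraries, for 14751 genes. The measure includes the difference between knockouts and controls, by which Eif4ebp1 was chosen. Genes with a large increase therefore come out close to it, and closeness is not evidence apart from the log2 changes. Closest to Eif4ebp1 was Slc7a3, a carrier of cationic amino acids, at 0.44, against a median of 1.09 over all genes. Next came Sesn2 at 0.48, the collagen receptor Ddr2 at 0.51, Atf5 at 0.52 and the urea carrier Slc14a2 at 0.55. Slc7a3 had 44.8, 45.1 and 33.1 CPM in knockouts A, B and C, against 10.6, 9.04 and 14.7 CPM in controls A, B and C. Knockout C was the lowest knockout in both Slc7a3 and Eif4ebp1, whereas the lowest control was B in Slc7a3 and A in Eif4ebp1. Slc14a2 rested on 53, 32 and 31 reads in knockouts and 10, 18 and 21 reads in controls, and it left the list when genes under a mean of 5 CPM were set aside. Of the other genes described here, Eif4ebp2 ranked 1202, Eif4e 7782, Eif4e3 9138 and Eif4e2 9328. Their log2 changes were far smaller than that of Eif4ebp1, so low ranks follow from the group difference and are not a separate result.

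**Figure D4:**
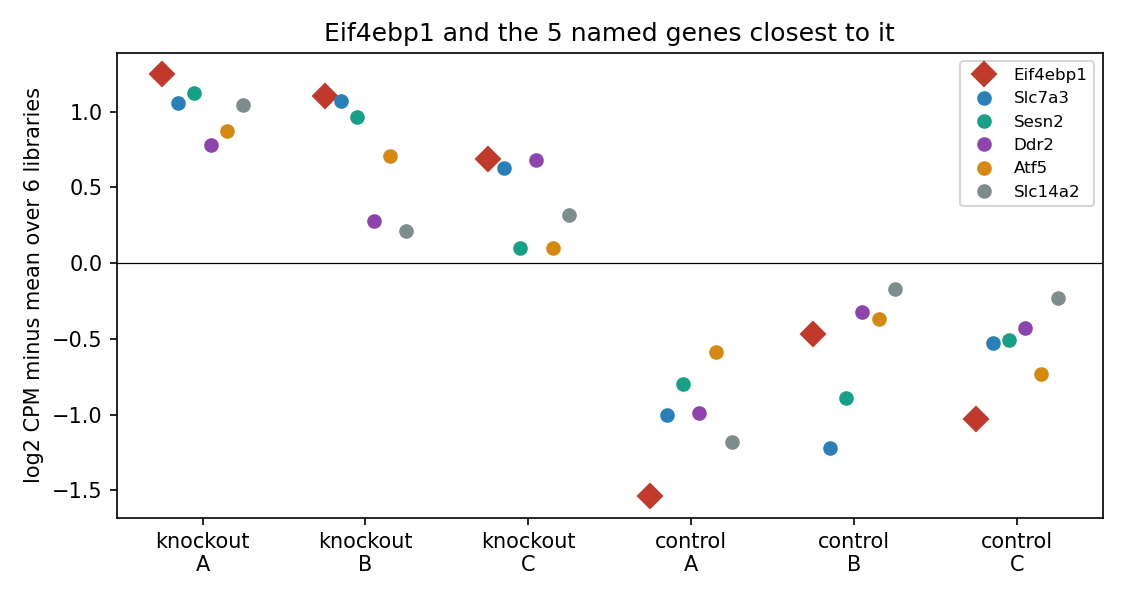
Log2 CPM minus the gene's mean over the 6 libraries (vertical axis) for Eif4ebp1 (diamonds) and the 5 named genes closest to it (circles), in each knockout and control library. All 6 genes are above their mean in the 3 knockouts and below it in the 3 controls, and Eif4ebp1 is lowest in control A.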

How the data were processed

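The authors deposited 1 table of unnormalised gene counts per library. The submitters' processing notes name STAR 2.5.4 and the build GRCm38 (mm10), and the release of the annotation is not given in the sources used here. Counts on the better-filled strand were used. It held 18.6 times the reads of the other, and the 6 genes had 0 to 3 reads on that other strand. Reads that map to several places are not counted (their line held 0). Symbols, lengths and sequences came from GENCODE M21 (52403 identifiers matched). Summary lines were left out of totals, and ambiguous reads were 0.689 to 0.759% of mapped reads.

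Counts were filtered with filterByExpr, scaled by TMM (factors 0.979 to 1.04) and compared with edgeR 4.0.16 (R 4.3.3), a robust quasi-likelihood test, two-sided, over all 14913 genes, at a Benjamini-Hochberg adjusted p under 0.05. CPM uses TMM-scaled totals. The SE of a log2 change was derived from the test, as the size of the change divided by the square root of the F statistic. The script was tested on simulated data. The alternatives tried were DESeq2 1.42.0, other scaling (RLE), no filter, both strands, the replicate block, the longest transcript or the unshared exon bases as gene length, and each library left out.

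The design text calls the samples biological replicates. Same-letter libraries deviated together from their group means (correlations 0.211 to 0.417, other letters at most -0.031). Centring on group means pushes the other-letter values down when same-letter values are positive, so these are not separate evidence. The letters were taken to pair libraries in the same-letter differences and in the replicate block, while the main fit left the letter out. The labels do not say what a letter marks. No 2 libraries agreed within sampling noise (lowest chi-square per degree of freedom 4.01).

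The members, lists and rules were chosen with earlier results of these data known. The genes named are Slc7a5, every member, up to 4 genes called in either model from each of the 4 pathway lists (with none, the 2 with the smallest p), and the 5 closest to Eif4ebp1, leaving out symbols of the Gm and Rik kinds.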

Additional observations from a re-analysis of the deposited data

How the results depend on the processing

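Eif4ebp1 was higher in knockouts under every alternative run, with log2 changes of 1.82 to 2.38 when 1 library was left out, and was called in all of them except without knockout B (2.03). Eif4e turned to -0.0050 without knockout A and -0.065 without control B, within a range of -0.065 to 0.099 over libraries left out. The log2 ratio of the Eif4e2 to the Eif4e per-length level was -0.36 with all exons and 0.48 with the longest transcript, and that of Eif4e3 to Eif4ebp2 was -0.37 in knockouts and -0.049 in controls with all exons, against -0.13 in knockouts and 0.18 in controls with unshared exon bases. These 2 choices of length were made after seeing the data. The replicate block changed the call of no member. Over all genes, 5 were called (3 higher, 2 lower), against 126 with the replicate block (49 higher, 77 lower), 71 with no filter (35 higher, 36 lower) and 27 with DESeq2 (12 higher, 15 lower). Leaving out 1 library gave 1 to 9 calls: 1 without knockout B, 9 without knockout C, and 2 each without control A and control B. The cause was not tested. If the annotation used for counting held the read-through transcript, shared exons limit what the counts say of Eif4ebp3. The 20 to 36 control reads limit the fold of Eif4ebp1.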
